A study of Arabidopsis thaliana with 12 samples.

Results

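The genes described are 10 Arabidopsis thaliana genes of nitrate uptake, transport and reduction, chosen by locus from a list of named genes drawn up with earlier results of these data known. They are the transporter genes NRT1.1, NRT1.5, NRT1.7, NRT1.8 and NRT2.1, the transporter partner NRT3.1, the reductase genes NIA1, NIA2 and NIR1, and the regulator NLP7. Of these, 8 had a row among the 14897 genes of the deposited table, and NRT1.8 and NRT2.1 were not analysed here. RNA was sequenced from whole seedlings, 14 days old, kept in liquid culture under continuous light. They were the wild type Col-0 or the mutant sid2, and each genotype received either urea or the amino acid L-glutamate (L-Glu) at 20 mM for 48 h. Each of these 4 groups held 3 libraries, and no untreated group was analysed, so every rise or fall with L-Glu is relative to urea. The sid2 mutant is named after SID2 (ICS1), the isochorismate synthase gene of salicylic acid synthesis. The labels do not give its allele, and their genotype field reads Col-0 for all 12 samples, so the sample titles were followed. Whether the libraries of a group stem from different cultures is not in the labels, and the p-values measure only the spread between these libraries.

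Plants take up nitrate from the soil through root transporters, load it into the xylem for the shoot and move it again between leaves through the phloem. In the cytosol nitrate reductase turns nitrate into nitrite, and in plastids nitrite reductase turns nitrite into ammonium, which is built into glutamine and glutamate. Many of these genes are known to be induced by nitrate, in part through the transcription factor NLP7, and to be lowered by reduced forms of nitrogen.

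The values are the authors' normalized signal, a gene-level read abundance whose scaling and read depth are not given in the sources used here. Library totals of the signal ranged from 2564533 to 4419987, and all L-Glu libraries had larger totals than all urea libraries, while the library medians lay between 74.1 and 77.2. SID2 was read in all 12 libraries. With urea its signal in Col-0 was 98.3, 100.1 and 89.6, and in sid2 43.3, 29.8 and 65.4, groups that did not overlap but whose difference did not pass the test (log2 fold change -1.06, adjusted p = 0.0745). With L-Glu the SID2 signal was 9615, 7461 and 10896 in Col-0, and in sid2 7434, 5421 and 7340. These groups also did not overlap, and the difference did not pass the test (log2 fold change -0.47, adjusted p = 0.197). A transcript level alone does not test the genotype label.

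Sequences upstream of the genes are shown for NIR1, whose promoter is where the nitrate response element was first described, and for NRT3.1, the gene that moved against the others. They come from the RefSeq assembly TAIR10.1 and its annotation, matched by locus to the table, whose processing notes name TAIR10. The long form of the nitrate response element, GACCCTTNNNNNNNNNNAAGAG, was searched on both strands in the 500 bases before the start codon of 27443 genes and was found in 1 of them (0.00364%), NIR1. Since the element was defined on that gene, the match is a description only. It began 64 bases after the annotated transcript start and 93 bases before the start codon. In the lines that follow, 30 bases around the match are printed with the fixed letters of the element in capitals. The only other match among the 10 genes to its shorter core CTTNNNNNNNNNNAAG, that of NRT1.7, is printed below it. The NRT1.7 match began 328 bases after the annotated transcript start and 93 bases before the start codon. The core was present in 17.8% of all such windows, and 2 of the 10 genes held it. This window was searched after the 250 bases before the transcript start had held the core in 0 of the 10 genes and in 8.02% of all promoters.
NIR1, chr2:6810455-6810484, plus strand: acttGACCCTTtacattgctcAAGAGctca
NRT1.7, chr1:26316108-26316137, plus strand: gtgttacCTTgattgcaaaaAAGtgagaat

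The 250 bases before the transcript start of NIR1 and NRT3.1 are printed next, 5′ to 3′. Capitals mark TTGAC, the core bound by WRKY factors, and GAATC, a core bound by the NIGT1 repressors of nitrate genes, each on either strand (GTCAA and GATTC on the other).
NIR1, chr2:6810145-6810394, plus strand: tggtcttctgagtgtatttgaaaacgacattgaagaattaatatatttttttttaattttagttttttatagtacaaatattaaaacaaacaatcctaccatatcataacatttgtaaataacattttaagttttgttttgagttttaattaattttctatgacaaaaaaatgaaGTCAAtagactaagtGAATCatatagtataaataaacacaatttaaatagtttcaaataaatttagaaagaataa
NRT3.1, chr5:20435930-20436179, plus strand: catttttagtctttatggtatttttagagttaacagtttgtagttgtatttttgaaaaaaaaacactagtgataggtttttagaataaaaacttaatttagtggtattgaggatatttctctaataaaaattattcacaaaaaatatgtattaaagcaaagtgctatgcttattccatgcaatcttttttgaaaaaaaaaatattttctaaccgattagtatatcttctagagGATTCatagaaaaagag
TTGAC was present in 6 of the 10 promoters (NIA1, NIA2, NIR1, NRT1.8, NRT2.1 and NLP7) against 44.9% of all promoters, and GAATC in 5 (NIA1, NIR1, NRT2.1, NRT3.1 and NLP7) against 38.8%. TGACG, the core bound by TGA factors, which can overlap TTGAC, was present in 1, NRT1.8, against 18.6% of all promoters. The promoter of NRT3.1 held GAATC and no TTGAC, and that of NIR1 held both.

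The first question was how L-Glu changed the nitrate genes. In Col-0, 7 of the 8 measured genes were lower with L-Glu than with urea and 1, NRT3.1, was higher. All 8 passed the test in a table where 60.1% of genes did, 29.7% as higher and 30.3% as lower. In sid2 the result was again 7 lower and 1 higher, with 64.4% of all genes called, 32% as higher and 32.4% as lower. Libraries of the compared groups did not overlap for any of the 8 genes in either genotype, as held for 61.8% of all genes in Col-0 and 71.9% in sid2. The median log2 fold change of the 8 genes was -2.33 in Col-0 and -2.17 in sid2, beside -0.05 and -0.02 over all genes. Scaling each library to the same total moved the median of all genes to -0.66 in Col-0 and -0.52 in sid2. The calls in Col-0 went from 4426 higher and 4520 lower to 2753 higher and 7833 lower. In sid2 they went from 4761 higher and 4831 lower to 3215 higher and 7094 lower. The 8 nitrate genes remained 1 higher and 7 lower in both genotypes.

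Uptake genes come first. NRT1.1 (AT1G12110, chromosome 1, 4105223 to 4109601, plus strand) encodes a dual-affinity nitrate transporter that also serves as a nitrate sensor. Its signal in Col-0 was 973, 839 and 759.8 with urea and 172, 193 and 99.9 with L-Glu. In sid2 it was 935, 1046 and 771 with urea and 125, 154 and 107 with L-Glu. The lowest urea library of either genotype was well above the highest L-Glu library. The log2 fold change, on the scale of log2(scaled signal + 1), was -2.49 ± 0.23 (SE) in Col-0 (adjusted p = 1.48e-08) and -2.80 ± 0.23 in sid2 (adjusted p = 2.44e-09), a fall of 5.61-fold and 6.98-fold.

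NRT3.1 (NAR2.1, AT5G50200, chromosome 5, 20436180 to 20437815, plus strand) encodes the membrane protein that NRT2 high-affinity transporters need in order to work. With urea its signal was 74.6, 67.4 and 83.3 in Col-0 and 79.7, 86.0 and 102 in the mutant, close to the median gene of those libraries. With L-Glu it was 1411, 1149.7 and 1876 in Col-0, and in sid2 1127, 1591 and 1692. Every L-Glu library therefore stood far above every urea library, and the genotypes overlapped under L-Glu. On the log2 scale NRT3.1 rose by 4.21 ± 0.21 in Col-0 (adjusted p = 1.62e-12) and by 3.97 ± 0.21 in sid2 (adjusted p = 3.96e-12), ranks 469 and 505 from the highest of the 14897 genes. NRT2.1, the transporter that NRT3.1 is known to pair with, was not analysed here, so the level of the transporter itself is not described.

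Next are the genes of long-distance transport. NRT1.5 (NPF7.3, AT1G32450, chromosome 1, 11715147 to 11719988, minus strand) is known for loading nitrate into the root xylem. Its signal with urea was 1881, 1634 and 1707 in the wild type and 2577, 2175 and 2192 in sid2. With L-Glu it was 309.6, 424 and 345 in Col-0, and in sid2 167, 114 and 202. With urea the sid2 libraries were all above those of Col-0, and with L-Glu they were all below. The log2 fold change was -2.27 ± 0.21 in Col-0 (adjusted p = 1.40e-08) and -3.85 ± 0.21 in sid2 (adjusted p = 5.71e-12), a fall of 4.84-fold and 14.4-fold. NRT1.5 overlaps PKp3, a plastid pyruvate kinase gene on the opposite strand, by 16 bases, and whether the counting used strand is not given in the sources used here. PKp3 had log2 fold changes of -1.97 and -1.69, and its part in the values of NRT1.5 was not tested.

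NRT1.7 (NPF2.13, AT1G69870, chromosome 1, 26315787 to 26320233, plus strand) is known for loading nitrate into the phloem of old leaves. With urea its signal was 195, 182 and 132 in Col-0, and in sid2 149, 166 and 163. With L-Glu it was 15.3, 6.27 and 32.0 in Col-0, and in sid2 39.2, 30.1 and 35.7. The 3 Col-0 L-Glu libraries spread widely, with an SD of 73.1% of the mean against 13.1% in sid2, and the value of 6.27 lay near the lowest of any gene in its library, 4.39. For NRT1.7 the log2 change was -3.19 ± 0.33 in Col-0 (adjusted p = 8.59e-08) and -2.09 ± 0.33 in sid2 (adjusted p = 1.85e-05). The table gave no values for NRT1.8, the transporter known for taking nitrate back out of the xylem.

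**Figure D1:**
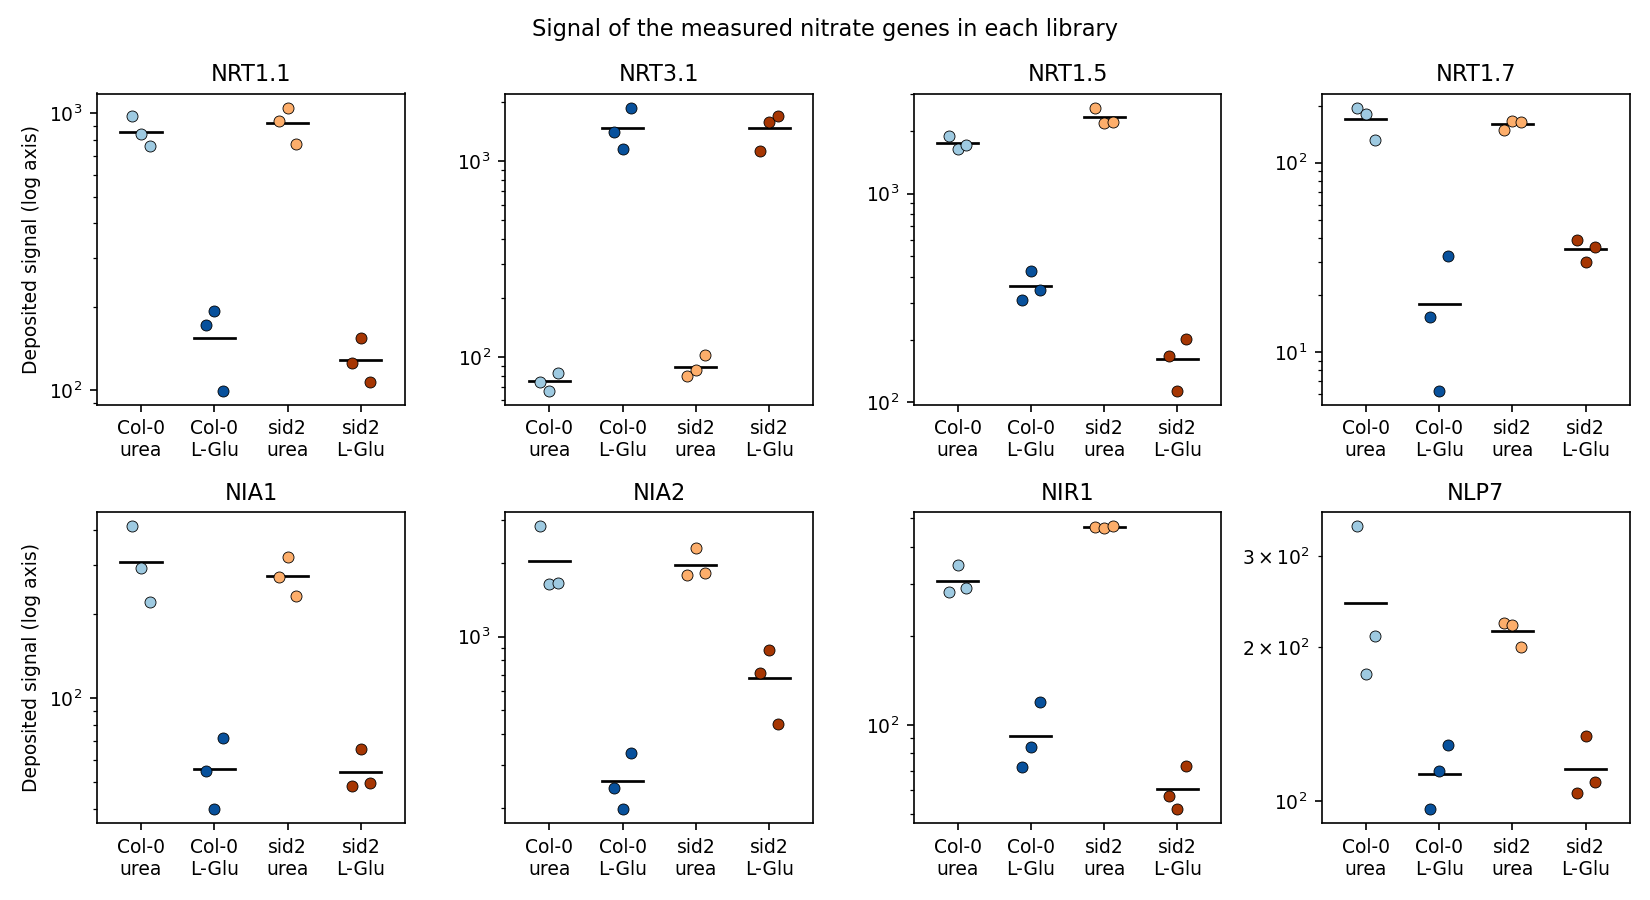
Deposited signal (log axis) of the 8 measured nitrate genes in each library, with points for the 3 libraries of each group and a black line for the group mean. NRT3.1 is the only panel in which L-Glu libraries are above urea libraries, at 1127 to 1876 against 67.4 to 102.

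Nitrate reductase, the enzyme of the first step of reduction, is encoded by NIA1 and NIA2, of which NIA2 is known to give most of the activity in leaves. NIA1 (AT1G77760, chromosome 1, 29235721 to 29239484, minus strand) had a signal of 414, 293 and 220.3 with urea and 54.9, 40.0 and 71.9 with L-Glu in Col-0. In sid2 the values were 272, 321 and 233 with urea and 48.28, 66.0 and 49.5 with L-Glu. The genotypes overlapped under both treatments. NIA1 had a log2 change of -2.39 ± 0.25 in Col-0 (adjusted p = 8.91e-08) and -2.26 ± 0.25 in sid2 (adjusted p = 1.73e-07).

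NIA2 (AT1G37130, chromosome 1, 14158452 to 14161938, plus strand) had a signal of 2827, 1645 and 1653 with urea and 240.1, 198 and 334 with L-Glu in Col-0. In sid2 the values were 1787, 2294 and 1818 with urea and 707, 885 and 439 with L-Glu. Under urea the genotypes overlapped, whereas under L-Glu each sid2 library was above each Col-0 library. The log2 fold change was -2.96 ± 0.27 in Col-0 (adjusted p = 1.51e-08) and -1.58 ± 0.27 in sid2 (adjusted p = 4.45e-05), a fall of 7.76-fold and 2.99-fold. The coding sequences of NIA1 and NIA2, both of 2754 bases, were 72.2% identical, and the longest run they shared was 20 bases.

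NIR1 (AT2G15620, chromosome 2, 6810395 to 6812941, plus strand) encodes the plastid nitrite reductase, the second step of reduction, and is the gene whose response element is printed above. Its signal in Col-0 was 282, 348 and 292 with urea and 72.1, 84.2 and 119 with L-Glu. In sid2 it was 468, 464 and 471 with urea and 57.5, 51.9 and 72.6 with L-Glu. The sid2 urea libraries were all above the Col-0 urea libraries, and under L-Glu the genotypes overlapped only at 72.1 and 72.6. NIR1 had a log2 change of -1.73 ± 0.20 in Col-0 (adjusted p = 4.45e-07) and -2.89 ± 0.20 in sid2 (adjusted p = 2.58e-10), a fall of 3.31-fold and 7.41-fold.

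NLP7 (AT4G24020, chromosome 4, 12479528 to 12484049, plus strand) encodes a transcription factor that is held in the nucleus when nitrate is present and drives nitrate-induced genes. Its signal in Col-0 was 344, 177 and 210.3 with urea and 96.6, 114 and 128 with L-Glu. In sid2 it was 223, 221 and 199.9 with urea and 104, 134 and 109 with L-Glu. Its fall was the smallest among the 7 genes that fell, at -1.03 ± 0.22 in Col-0 (adjusted p = 0.000495) and -0.88 ± 0.22 in sid2 (adjusted p = 0.00181) on the log2 scale, although differences between genes were not tested.

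Col-0 urea library 1 held the highest value of its group for 6 of the 8 genes (NRT1.1, NRT1.5, NRT1.7, NIA1, NIA2 and NLP7). Leaving out any 1 of the 12 libraries ended none of the 16 calls of L-Glu against urea. Over these omissions the log2 fold change in Col-0 ranged from -3.16 to -2.70 for NIA2, from -3.66 to -2.72 for NRT1.7 and from -1.23 to -0.76 for NLP7.

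**Figure D2:**
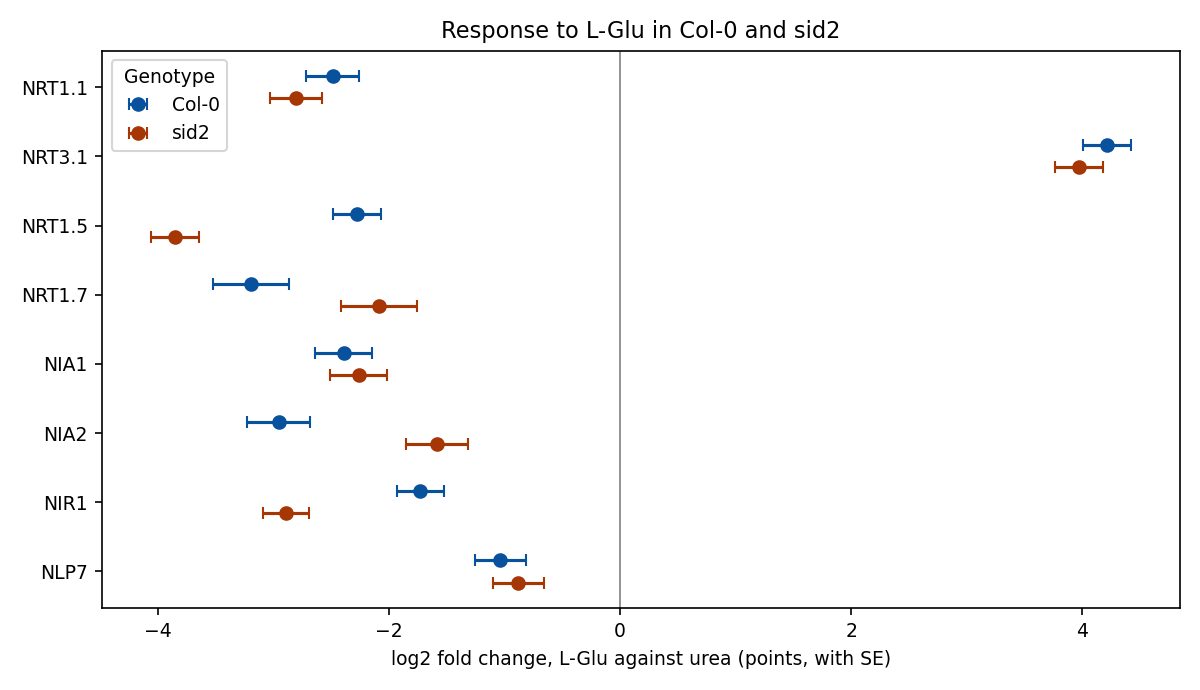
Log2 fold change of L-Glu against urea for each measured nitrate gene in Col-0 (blue) and sid2 (orange-brown), with bars for the SE of the fit over 3 libraries per group. NRT1.5 and NIR1 lie further to the left in sid2 (-3.85 and -2.89) than in Col-0 (-2.27 and -1.73), and NIA2 and NRT1.7 less far (-1.58 and -2.09 against -2.96 and -3.19).

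The second question was whether the response to L-Glu differed in the mutant. The interaction, the effect in sid2 minus that in Col-0 on the log2 scale, passed the test for 2 of the 8 genes, both negative, with 1.95% of all genes called and 0.671% called as negative. For NRT1.5 it was -1.58 ± 0.29 (adjusted p = 0.0168) and for NIR1 it was -1.16 ± 0.28 (adjusted p = 0.0406). For both, L-Glu lowered the signal further in sid2, from urea libraries that were all higher in sid2, a difference that did not itself pass the test. The call of NRT1.5 ended with 1 of the 12 omissions, that of sid2 L-Glu library 2, the lowest at 114 (-1.35, adjusted p = 0.0786). The call of NIR1 ended with 10 of the 12 omissions and with equal library totals (-1.03, adjusted p = 0.0610), a pseudocount of 0.1 (adjusted p = 0.0509) or no trend in the prior variance (adjusted p = 0.0725).

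NIA2 and NRT1.7 had positive interactions that did not pass the test, 1.37 ± 0.38 (adjusted p = 0.0655) for NIA2 and 1.107 ± 0.46 (adjusted p = 0.226) for NRT1.7. NIA2 passed with equal library totals (adjusted p = 0.0310), without Col-0 L-Glu library 3 (1.58, adjusted p = 0.0439) and without sid2 L-Glu library 3 (1.66, adjusted p = 0.0458). NRT1.7 passed without Col-0 L-Glu library 3, the highest of its group (1.57, adjusted p = 0.0353). The other 4 genes, NRT1.1, NRT3.1, NIA1 and NLP7, had interactions between -0.31 and 0.15 with SEs of 0.29 to 0.35, none past the threshold.

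Compared directly under L-Glu, sid2 differed from Col-0 in 3 of the 8 genes, 2 higher and 1 lower, with 13.3% of all genes called, 7.27% as higher and 6.04% as lower. NIA2 was higher in sid2 by 1.36 ± 0.27 on the log2 scale (adjusted p = 0.00323), in 3 of 3 libraries and with every omission. NRT1.5 was lower by -1.17 ± 0.21 (adjusted p = 0.00151), also in 3 of 3 libraries and with every omission. NRT1.7 was higher by 1.03 ± 0.33 (adjusted p = 0.0439), but its groups overlapped, since Col-0 library 3 at 32.0 lay above sid2 library 2 at 30.1. Its call ended with 9 of the 12 omissions and was 0.57 (adjusted p = 0.235) without Col-0 L-Glu library 2, the one at 6.27. It also ended with a pseudocount of 5 (0.63, adjusted p = 0.0619), without the trend in the prior variance (adjusted p = 0.0564) and with only the 2 groups compared (adjusted p = 0.0754). Groups did not overlap for NIA2 and NRT1.5, 2 of the 8 genes, beside 33.8% of all genes. NIR1 was lower by -0.56 ± 0.20 without passing the test (adjusted p = 0.0724), and passed without Col-0 L-Glu library 1 (-0.71, adjusted p = 0.0362). Differences for NRT1.1, NRT3.1, NIA1 and NLP7 lay between -0.22 and 0.03, with SEs of 0.21 to 0.25.

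Under urea, limma called 0 of the 8 genes between sid2 and Col-0, with 0.248% of all genes called (37 genes, and 943 at an unadjusted p under 0.05). NIR1 was the only nitrate gene at an unadjusted p under 0.05, with a log2 difference of 0.61 ± 0.20 (unadjusted p = 0.00708, adjusted p = 0.455). NRT1.5 differed by 0.41 ± 0.21 (adjusted p = 0.803). In both genes the sid2 and Col-0 libraries did not overlap, as was so for 11.3% of all genes. The interaction and the genotype comparisons share libraries with each other and with the treatment comparisons, so their values for a gene are not independent.

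Ratios between genes within a library do not change when all values of the library are multiplied by the same factor. Whether the authors' normalization was of that kind is not given. Quantile normalization would change the ratios. The ratios are given per kb of exon as a description, without a test. The ratio of NIA2 to NIA1 with urea was 6.73, 5.53 and 7.39 in Col-0, and it was 6.48, 7.04 and 7.68 in sid2. With L-Glu it was 4.30, 4.86 and 4.58 in Col-0, and in sid2 14.4, 13.2 and 8.74. The L-Glu libraries thus lay below all urea libraries in Col-0 and above all of them in sid2, and the reductase transcripts that remained in sid2 were more weighted to NIA2.

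The ratio of nitrite reductase to the sum of both nitrate reductase genes, NIR1 to NIA1 plus NIA2, was 0.127, 0.262 and 0.227 in Col-0 with urea. It was 0.356, 0.516 and 0.429 in Col-0 with L-Glu, above all 3 urea libraries. In sid2 it was 0.332, 0.259 and 0.335 with urea and 0.111, 0.0796 and 0.217 with L-Glu. This transcript ratio moved in opposite directions in the 2 genotypes, toward NIR1 in Col-0 and toward NIA1 plus NIA2 in sid2. The enzymes themselves were not analysed here.

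Among the transporters, the ratio of xylem loader NRT1.5 to phloem loader NRT1.7 with urea was 10.5, 9.83 and 14.1 in Col-0, and it was 18.9, 14.3 and 14.7 in sid2. With L-Glu it was 22.1, 73.9 and 11.7 in Col-0, a spread set by the low values of NRT1.7. In sid2 with L-Glu it was 4.65, 4.14 and 6.18, below each of the other 9 libraries. The ratio of NRT1.5 to NRT1.1 ran from 1.79 to 3.43 over the other 3 groups and was 1.32, 0.734 and 1.88 in sid2 with L-Glu, so these overlapped. NRT3.1 per kb was 0.128 to 0.222 of NRT1.1 in the urea libraries and 9.97 to 31.5 times NRT1.1 in the L-Glu libraries.

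**Figure D3:**
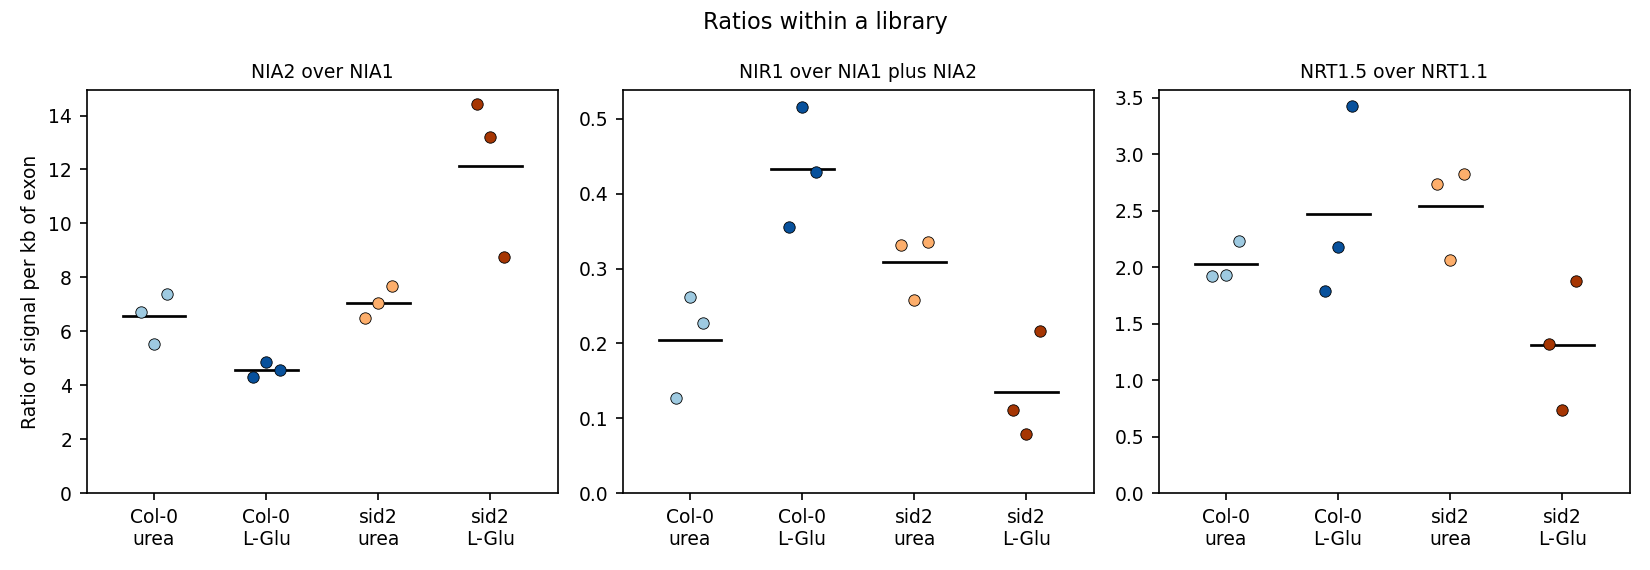
Ratios of signal per kb of exon within each library for NIA2 to NIA1, NIR1 to NIA1 plus NIA2, and NRT1.5 to NRT1.1, with points for the 3 libraries of each group and a line for the mean. With L-Glu the NIA2 to NIA1 ratio is 8.74 to 14.4 in sid2 and 4.30 to 4.86 in Col-0, and the NIR1 ratio is 0.0796 to 0.217 in sid2 and 0.356 to 0.516 in Col-0.

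The order of the genes by level, as signal per kb of exon, was led by NRT1.5 with urea, at 786 ± 57.2 (SD, n = 3) in Col-0 and 1045 ± 103 in sid2. In Col-0 NIA2 followed at 637 ± 212, overlapping NRT1.5, and then NRT1.1 at 389 ± 48.9. NIR1 at 140.1 ± 16.2, NIA1 at 97.9 ± 31.0, NRT1.7 at 70.1 ± 13.8, NLP7 at 69.9 ± 25.3 and NRT3.1 at 57.1 ± 6.05 followed, each overlapping the next. In sid2 with urea the levels of NRT1.5, NIA2, NRT1.1, NIR1 and NIA1 kept this order without overlap between neighbours, and the lowest 4 genes, from NIA1 at 87.2 ± 14.0 to NLP7 at 61.6 ± 3.64, overlapped theirs.

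With L-Glu NRT3.1 led in both genotypes, at 1125 ± 279.8 per kb in Col-0 and 1118 ± 229 in sid2, with no overlap with the next gene. In Col-0 NRT1.5 came next at 162 ± 26.5, then NIA2 at 80.3 ± 21.8 and NRT1.1 at 70.3 ± 22.2, which overlapped each other. In sid2 NIA2 came next at 211 ± 70.0, above NRT1.5 at 72.6 ± 20.0 without overlap, so these genes changed places between the genotypes. NRT1.7 was the lowest gene in both, at 7.39 ± 5.40 and 14.5 ± 1.898, overlapping NIA1 above it.

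Other genes of the pathway were taken from 3 lists. Of 22 other nitrate transporters and channels, 10 had a row. In Col-0, 1 rose and 5 fell with L-Glu, with a median log2 fold change of -0.50, and in sid2 again 1 rose and 5 fell, with a median of -0.88. The 6 of 10 called are near the share over all genes, 60.1% in Col-0 and 64.4% in sid2. Equal library totals called 2753 of the 14897 genes higher and 7833 lower in Col-0, and 3215 and 7094 in sid2. Under that scaling the counts of this list were 1 and 8 in Col-0, and in sid2 0 and 8. The riser, NAXT1, a nitrate efflux transporter of the plasma membrane, went from 41.3 ± 13.4 to 164 ± 28.9 in Col-0 (log2 fold change 1.94, adjusted p = 1.49e-06) and from 44.5 ± 8.21 to 79.4 ± 2.94 in sid2 (0.80, adjusted p = 0.00810), where it did not pass with equal library totals. CLCa, the vacuolar antiporter that stores nitrate, fell by 1.07 in Col-0 (adjusted p = 0.000177) and by 1.93 in sid2 (adjusted p = 1.23e-07) on the log2 scale. Its relative CLCb had log2 fold changes of -1.099 and -1.42, and NRT1.4, which holds nitrate in the leaf petiole, of -1.71 and -2.43, all called.

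Under L-Glu, 5 of these 10 transporters were lower in sid2 than in Col-0 and 0 higher, beside 6.04% and 7.27% of all genes, and 4 of them remained called with equal library totals. They were NRT1.4 (-1.20, adjusted p = 0.0160), NAXT1 (-1.001, adjusted p = 0.0126), NPF2.10 (-0.88, adjusted p = 0.00873), CLCa (-0.76, adjusted p = 0.0204) and NPF2.11 (-0.61, adjusted p = 0.0483). NPF2.11 was the one not called with equal totals, and NRT1.4 was the one whose groups overlapped. NPF2.10 and NPF2.11 are known as glucosinolate transporters. NPF2.10 passed the treatment test in sid2 (-1.21) and not in Col-0 (-0.30), but its interaction did not pass (adjusted p = 0.109). Limma called 0 of the 10 in the interaction, beside 1.95% of all genes, with the smallest adjusted p at 0.0956, for NAXT1. At an unadjusted p under 0.05 were 3 of the 10 (NAXT1, NPF2.10 and CLCa), beside 2511 of the 14897 genes.

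Of 32 genes of nitrate signalling, 27 had a row, and in Col-0 11 rose and 8 fell (median 0.05), against 8 and 10 in sid2 (median -0.12). Over all genes 29.7% rose and 30.3% fell in Col-0, and 32% rose and 32.4% fell in sid2, so a count of 8 of 27 is close to the share over all genes. With equal library totals the Col-0 counts were 9 and 13 of 27, beside 2753 and 7833 of the 14897 genes. The risers with the smallest p were calcium signalling genes and a repressor. CPK32, a calcium-dependent kinase that phosphorylates NLP7, went from 213 ± 24.8 to 2891 ± 389 in Col-0 (log2 fold change 3.74, adjusted p = 1.91e-12) and rose by 3.56 in sid2. CPK10, a kinase of the same group, rose by 2.85 and 2.59. CPK30, also of that group, did not pass in either genotype, at 0.39 in Col-0 and 0.11 in sid2. CBL1, a calcium sensor that acts with the kinase CIPK23 on NRT1.1, went from 63.2 ± 20.3 to 1139 ± 18.5 in Col-0 (4.14, adjusted p = 6.89e-12) and rose by 4.26 in sid2. HHO2 and HHO3, of the NIGT1 repressor family, rose by 2.53 and 2.23 in Col-0 and by 2.41 and 3.24 in sid2. HHO3 was higher in sid2 under L-Glu (0.84, adjusted p = 0.0160). HRS1, of the same family, did not pass in either genotype, at 0.11 in Col-0 and -0.15 in sid2. CIPK8, a kinase of the low-affinity nitrate response, rose by 1.23 and 0.58 and was lower in sid2 under L-Glu (-0.62, adjusted p = 0.0251). The sid2 rise of CIPK8 did not pass with equal library totals. Interactions did not pass for HHO3 (adjusted p = 0.0917) or CIPK8 (adjusted p = 0.180). Limma called 0 of the 27 in the interaction, beside 1.95% of all genes, and 4 had an unadjusted p under 0.05, beside 2511 of 14897. Under L-Glu 3 of the 27 were higher and 1 was lower in sid2, beside 7.27% and 6.04% of all genes.

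Relatives of NLP7, picked here for their name after their values had been seen, were mixed. NLP2 fell in both genotypes, with log2 fold changes of -2.04 in Col-0 and -2.17 in sid2. NLP6 fell by 1.08 in Col-0 (adjusted p = 0.00167), had a log2 fold change of -0.16 in sid2 (adjusted p = 0.609) and was higher in sid2 under L-Glu by 0.92 (adjusted p = 0.0283), with an interaction of 0.92 that did not pass (adjusted p = 0.211). NLP1 and NLP4 passed in sid2, at -0.81 each, and not in Col-0, at -0.42 and -0.56, and their interactions did not pass (adjusted p = 0.607 and 0.758). NLP5 rose by 0.51 in Col-0, which became -0.13 with equal library totals, and NLP8 did not pass in either genotype.

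Of 17 genes for the molybdenum and siroheme cofactors and the reducing power of nitrate reduction, 16 had a row. In Col-0, 4 rose and 2 fell (median -0.04), and in sid2 4 rose and 4 fell (median -0.32). These 6 and 8 of 16 genes are a smaller share than the 60.1% and 64.4% called over all genes, a difference that was not tested. With equal library totals the counts were 1 and 11 in Col-0, and in sid2 3 and 9, so the direction of this list depends on the scaling. Over all 14897 genes that scaling called 2753 higher and 7833 lower in Col-0, and 3215 and 7094 in sid2. CNX2, CNX1 and CNX5, of molybdenum cofactor synthesis, rose by 1.41, 0.94 and 0.72 in Col-0 and by 1.08, 1.09 and 1.122 in sid2, and CNX1 and CNX5 did not pass in Col-0 with equal totals. G6PD2, a plastid glucose-6-phosphate dehydrogenase, fell by 0.91 in Col-0 (adjusted p = 0.00478). CNX3, also of that cofactor, was higher in sid2 under L-Glu by 1.08 (adjusted p = 0.0230).

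**Figure D4:**
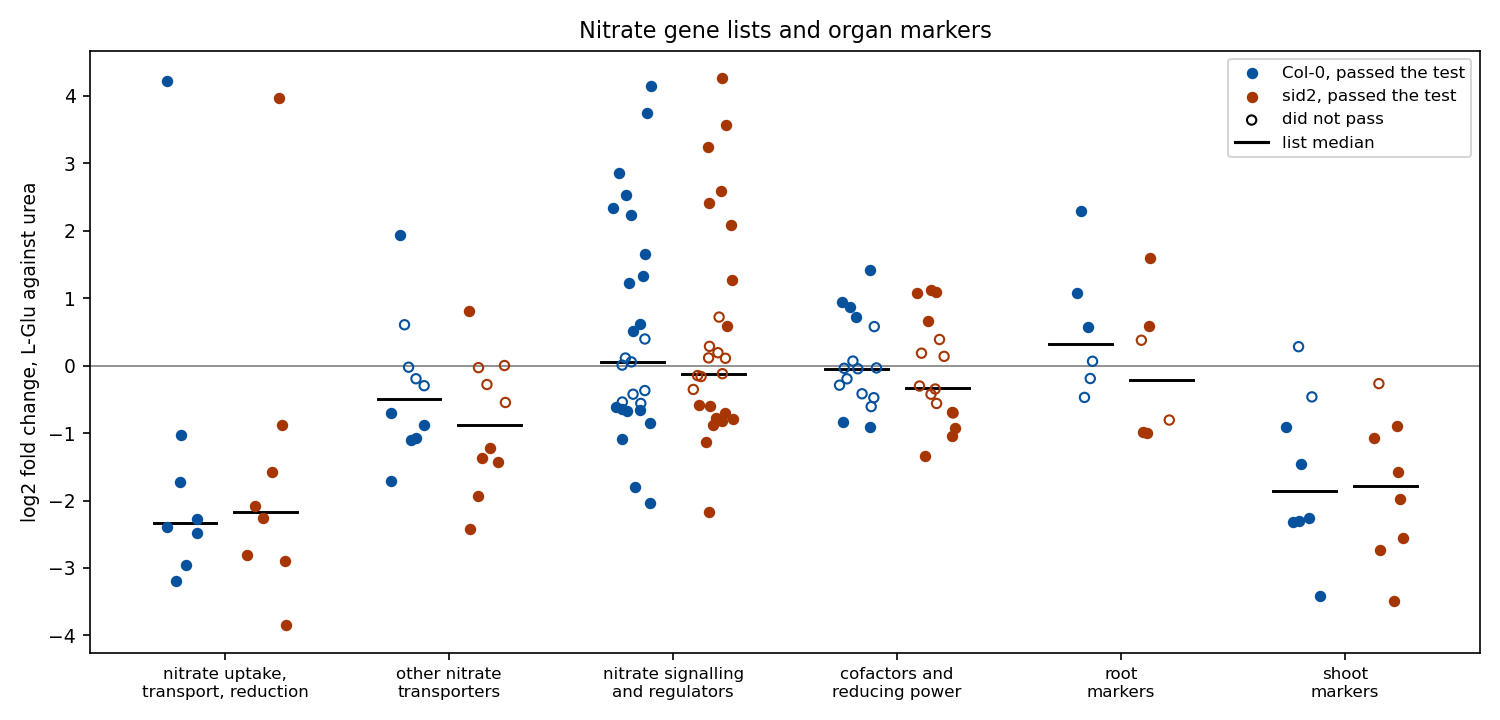
Log2 fold change of L-Glu against urea for each measured gene of the nitrate set, 3 lists of related genes and 2 lists of organ markers, in Col-0 (blue) and sid2 (orange-brown), with filled points for genes past the threshold, open points for the rest and lines for the medians. The nitrate set has medians of -2.33 and -2.17, nearer to the shoot markers (-1.85 and -1.78) than to the other 3 nitrate lists. A cause of this was not tested.

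Whole seedlings hold roots and shoots, and in such samples fewer cells of an organ and less RNA per cell cannot be told apart. Over all genes 29.7% rose and 30.3% fell in Col-0, and 32% rose and 32.4% fell in sid2. Of 17 shoot markers 8 had a row, and 6 fell and 0 rose in Col-0, against 7 and 0 in sid2. Their summed signal was 1718 to 1806 in Col-0 and 1704 to 1810.5 in sid2 with urea, and 423 to 605 and 448 to 456 with L-Glu. Of 20 root markers 6 had a row, of which 3 rose and 0 fell in Col-0 (median log2 fold change 0.32) and 2 rose and 2 fell in sid2 (median -0.22). With equal library totals 1 rose and 2 fell in Col-0 (median -0.27) and 1 rose and 3 fell in sid2, and with quantile normalization 1 rose and 0 fell in Col-0 (median -0.05), so the direction of the root markers in Col-0 depends on the scaling. Their sum, most of it from BGLU23, was 2577 to 4159.7 in Col-0 and 2753 to 3468 in sid2 with urea, and 4592 to 9756 and 3495 to 4278 with L-Glu. None of the measured markers was at 0 in any library. Most measured shoot markers thus fell with L-Glu, as did all measured nitrate genes but NRT3.1. The root markers had no common direction over the genotypes and scalings. Of the nitrate genes, NRT1.5 is known from roots and NRT1.7 from leaves. What part the organs had in the results was not tested. Between the genotypes under L-Glu, 0 of the 6 root markers were called by limma, with 2 at an unadjusted p under 0.05. Of the 8 shoot markers 1 was higher and 2 were lower in sid2. Over all genes 7.27% were called higher and 6.04% lower, and 4293 of 14897 had an unadjusted p under 0.05.

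The genes whose pattern over the 12 libraries was most like each member were found by the root mean square difference of mean-centred log2 values. Changes that they share with the member, also between genotypes, follow from this choice and are a description only. For NRT3.1 they were PUB22 (0.210) and AT4G18950 (0.211), with log2 fold changes of 4.07 and 4.29 in Col-0. For NIA2 they were AZI1 (0.237) and RIBA3 (0.256), both with a smaller fall in sid2 than in Col-0, -1.30 against -2.90 for AZI1. For NRT1.5 they were PHR2 (0.222) and SAHH2 (0.286), and for NIR1 ALPHA DOX2 (0.198) and SULA (0.200), all 4 with a larger fall in sid2. NLP7 was nearest to SAC3A (0.131), NIA1 to AT1G71810 (0.162), NRT1.1 to FAB1 (0.179) and NRT1.7 to AT3G51510 (0.246).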

How the data were processed

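The authors deposited a table of normalized signal, 1 value per gene and library, with no counts. TAIR10 is the genome that the submitters' processing notes give, and the tools they list, with no role, are edgeR 3.22.3, HTSeq 0.6.0, TopHat and TopHat2 2.1.0. The normalization, the read depth and the use of strand are not given in the sources used here, so no counting interval is printed. No value was 0. The same constant, 3.492, divided all values so that library totals average that of CPM, and log2 was taken after adding 1 scaled unit. The pseudocount understates changes of low genes. No gene fell under the minimum mean of 1 scaled unit. Limma 3.58.1 in R 4.3.3 was fitted to 4 group means over 14897 genes with an intensity trend, which left 8 residual degrees of freedom. P-values were two-sided and adjusted by Benjamini-Hochberg over all genes at 0.05. The fit was also run on simulated data with independent noise and few changed genes. That setting is unlike these data, so it does not check the p-values given here. Named values are deposited signal, with SD over 3 libraries or SE of the fit. Levels per kb used exon length in TAIR10.1, whose annotation held 14819 of the identifiers, and coordinates are from TAIR10.1.

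The members and lists were chosen with earlier results of these data known. All 10 members are named. From each related list, up to 4 genes with the smallest p in Col-0 were named, and up to 2 more called between genotypes. The nearest patterns are the 2 closest genes per member, of which the text prints 1 or 2.

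The labels number libraries 1 to 3 in each group. Deviations of same-numbered libraries correlated above 0.1 in all 3 pairs for sid2 with urea and L-Glu (r = 0.116, 0.287 and 0.204). The same held for urea in Col-0 and sid2 (0.126, 0.219 and 0.196). No batch is stated, and the main fit used no pairing. A block by library number over all 4 groups was run only as an alternative. Alternatives were other scalings, pseudocounts and minimums, no trend, the replicate block, only the groups compared, and leaving out each library.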

Additional observations from a re-analysis of the deposited data

Results flagged for a closer look

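Of the nitrate genes, 2 had a response to L-Glu that differed between the genotypes by the interaction test. For NRT1.5 the effect in sid2 minus that in Col-0 was -1.58 on the log2 scale (adjusted p = 0.0168), and for NIR1 it was -1.16 (adjusted p = 0.0406). The call of NIR1 ended with 10 of the 12 omissions of a library, with equal library totals, with a pseudocount of 0.1 and without the trend, and that of NRT1.5 with 1 omission. No explanation was tested.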

How the results depend on the processing

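All 336 values of L-Glu against urea in the 8 nitrate genes kept their direction and call under every alternative run. For the interaction, 138 of 160 did, for the genotypes under urea 159 of 168, and under L-Glu 143 of 168. The count of nitrate genes called in the interaction was 2, and 1 with a pseudocount of 0.1 or without the trend, and 0 to 3 when a library was left out. With equal library totals it stayed 2, as NIA2 was gained and NIR1 lost. Over all genes the interaction count was 291, and it was 151 with quantile normalization, 453 with a pseudocount of 5, 143 without the trend and 9 to 367 when a library was left out, lowest without sid2 L-Glu library 2. Under urea the count of 37 between genotypes became 60 with equal totals, 20 with a pseudocount of 5, 12 without the trend, 5 with only the groups compared and 13 to 37 when a library was left out. Under L-Glu the count of 1983 ranged from 792 to 2649 over the omissions.

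With equal library totals the differences of sid2 from Col-0 that did not pass any test turned direction for NRT1.1 under urea (-0.023) and for NIA1 (0.0084) and NRT3.1 (0.010) under L-Glu, and with quantile normalization for NRT1.1 under urea (-0.021) and NRT3.1 (0.075) and NLP7 (-0.0051) under L-Glu. When a library was left out, the interaction ranged from -0.10 to 0.34 for NIA1 and from -0.12 to 0.35 for NLP7. The difference under urea ranged from -0.35 to 0.10 for NIA1, -0.15 to 0.24 for NIA2, -0.0067 to 0.21 for NRT1.1, -0.24 to 0.037 for NRT1.7 and -0.32 to 0.15 for NLP7. Under L-Glu it ranged from -0.21 to 0.19 for NIA1, -0.17 to 0.18 for NRT3.1 and -0.080 to 0.12 for NLP7. The cause was not tested.

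With the replicate block the nitrate genes called numbered 8 and 8 for L-Glu in Col-0 and sid2, 2 for the interaction, 0 under urea and 3 under L-Glu, so no call changed. Same-numbered libraries of Col-0 with urea and L-Glu correlated weakly (r = 0.0861, 0.0265 and 0.0620), though each more than with libraries of another number. For both genotypes with L-Glu the values were 0.142, -0.110 and 0.112. Whether same-numbered libraries belong together is not in the labels. The unknown read depth limits what can be said of NRT1.7 with L-Glu, the lowest gene of the set.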
